A study of Epimedium pseudowushanense with 3 samples.

Results

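Between the start of embryo growth and germination, 116 transcripts of Epimedium pseudowushanense seeds fell at each of 2 successive steps. They were chosen from the 178603 transcripts of the deposited table by their level and their 2 differences. Of those, 7385 had a mean of at least 10 RPKM (reads scaled to transcript length and to library size) over the 3 libraries. A transcript was then kept if log2(RPKM + 1) was lower by 1 or more in the second library than in the first, and again lower by 1 or more in the third than in the second. The rule thus used every value that is available for these transcripts, and their levels and differences are given as descriptions, without a test.

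Epimedium pseudowushanense is a perennial herb of the barberry family, and the study addressed the metabolism and signalling of abscisic acid and gibberellins during the dormancy of its seeds. RNA was taken from seeds in which the embryo had begun to grow (first stage), from seeds whose embryo exceeded 0.5 of the seed length (middle stage), and from germinating seeds. Each stage was sequenced as 1 library. With 1 library per stage no difference has a replicate check, and seed lot and library preparation cannot be told apart from the stage.

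Seeds with morphophysiological dormancy are shed with a small embryo that must grow inside the seed before the root can emerge, and in addition the embryo has to lose a physiological block. Abscisic acid maintains dormancy and the expression of genes for stored reserves and desiccation tolerance, whereas gibberellins promote embryo growth and germination. Seeds also carry messenger RNA stored during maturation, part of which is degraded as germination proceeds. The transcripts are known here only by assembly numbers, so none of the 116 is assigned to a gene, a hormone pathway or a tissue of the seed. In RNA from seeds, fewer cells of one type and less RNA per cell cannot be told apart.

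In stage order, the libraries summed to 538942, 626584 and 615633 RPKM, and 134657, 148343 and 87582 transcripts were above 0 RPKM. The germinating library thus listed the most transcripts at 0, and the part of this in the last-step falls was not tested. Read totals were not used here. For transcripts at low RPKM in both libraries of a pair, the ratio of a transcript's values between the libraries was taken. The commonest ratio was 1.00 for the middle library over the first and 1.07 for the germinating library over the middle one. Reading it as the relative worth of 1 counted read or pair assumes equal counts in both libraries, which was not tested. The search considered ratios near 1 only. The number of reads behind a single value is unknown, because transcript lengths were not used here.

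The group was a small part of the transcripts with a mean of at least 10 RPKM, and it was outnumbered by the opposite pattern. By the same size of difference, 355 of the 7385 transcripts were lower at the first step (4.81%), 333 were lower at the last step (4.51%) and 116 were lower at both (1.57%). A further 239 transcripts (3.24%) fell at the first step only, and 217 (2.94%) fell at the last step only. Transcripts that rose by 1 or more at both steps numbered 329 (4.45%). Scaling moved these numbers: median-of-ratios factors gave 92 transcripts falling at both steps, 343 falling at the first step only, 152 falling at the last step only and 500 rising at both. Trimmed means gave 98, 410, 153 and 451 in the same order, and equal sums gave 120, 409, 197 and 298. These shares are fixed by the rule that chose the groups and carry no test.

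**Figure D1:**
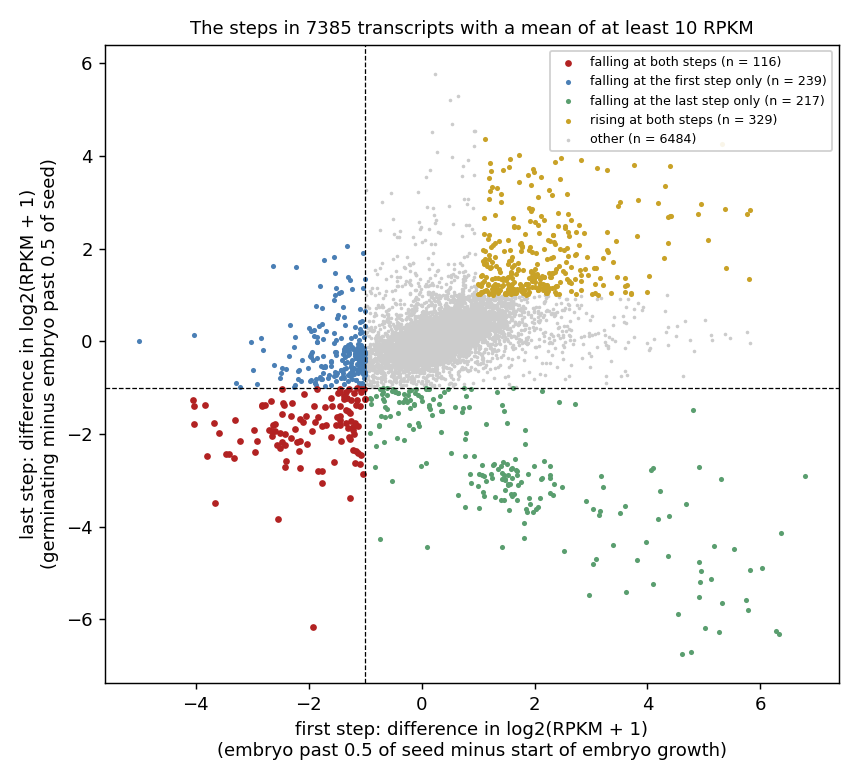
Each point is 1 of 7385 transcripts with a mean of at least 10 RPKM. The horizontal axis is the first-step difference and the vertical axis the last-step difference, both in log2(RPKM + 1), and dashed lines mark a fall of 1. The 116 transcripts falling at both steps (red) fill the lower left corner, and 1 of them lies far below the others at a last-step difference of -6.16.

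As a group, the transcripts were abundant at the start of embryo growth and scarce in germinating seeds, an order that the rule sets. Their median level was 122 RPKM at the first stage (interquartile range 59.2 to 314), 24.0 RPKM at the middle stage (12.5 to 93.5) and 5.95 RPKM at germination (2.71 to 24.7). Over all 7385 transcripts the medians were 18.8, 22.6 and 25.4 RPKM in the same order. The group was chosen by its decline, so this contrast is a description and no test. Single transcripts ranged from 19.2 to 4446 RPKM at the first stage, from 2.04 to 1413 RPKM at the middle stage and from 0.16 to 513 RPKM at germination. None of the 116 was listed at 0 in any library.

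The share of each library taken by the 116 transcripts fell in parallel. The rule requires each of them to fall at both steps, so this decline describes the group only. In stage order their summed level was 46180, 14509 and 3781 RPKM, or 8.57%, 2.32% and 0.614% of each library's summed RPKM. Few transcripts held most of it: the 10 most abundant of the group in each library made up 53.2%, 56.9% and 58.4% of the group's sum in stage order. The 329 transcripts rising at both steps took 0.722%, 3.27% and 10.2% of the summed RPKM. The 239 that fell at the first step only took 3.98%, 1.1% and 0.864%, and the 217 that fell at the last step only took 4.41%, 5.20% and 1.19%. The steps at which these sets rose or fell were likewise set by the size rule.

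Relative to its own first-stage level, a transcript of the group kept a median of 27.2% at the middle stage (range 4.17% to 49.8%). At germination it kept a median of 23.3% of its middle-stage level (0.576% to 48.7%) and 6.52% of its first-stage level (0.152% to 23.3%). In 79 of the 116 transcripts the germinating level was under 10% of the first-stage level, and in 7 it was under 1%. These ratios are of RPKM as deposited, and the 12 transcripts under 1 RPKM at germination may rest on few reads.

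On the log2(RPKM + 1) scale and as deposited, the group's median difference was -1.83 at the first step and -1.80 at the last step, against 0.30 and 0.08 over all 7385 transcripts. Over the whole span the median difference was -3.72, against 0.38 over all. The rule requires a fall of 1 or more at each step, so the contrast with all 7385 is a description. The near equality of the steps changed with the scaling and the pseudocount. For the same 116 transcripts the medians of the first and last step were -1.94 and -1.51 after median-of-ratios scaling, -2.03 and -1.53 after trimmed-mean scaling, and -2.04 and -1.76 after scaling to equal sums. The medians over all 7385 transcripts moved too, to 0.19 and 0.40, to 0.11 and 0.37, and to 0.10 and 0.11 in the same order. With a pseudocount of 0.1 the group's medians were -1.87 and -2.07, and with a pseudocount of 5 they were -1.71 and -1.26. Of the 116 transcripts, 90 passed the full rule again under all 3 scalings.

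The 10 transcripts with the greatest falls over the span ended at 0.41 to 3.66 RPKM. Their order depends on the pseudocount of 1. With 0.1, comp12894_c0_seq1, outside these 10, had a span difference of -7.56, against -7.03 in comp12336_c0_seq1. The transcript comp30033_c0_seq1 had 455, 120 and 0.69 RPKM in stage order. Its differences were -1.92 and -6.16, the second of which was the greatest last-step fall of the group. In abundance it ranked 118, 663 and 26008 in the successive libraries.

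A more even course was seen in comp12098_c0_seq1, with 218, 16.3 and 0.53 RPKM in stage order. It was the only transcript of the group to fall by 3 or more at both steps, with differences of -3.66 and -3.50. The transcript comp12336_c0_seq1 had 203, 33.8 and 1.45 RPKM, with the larger fall at the last step (-3.83, against -2.55 at the first). These transcripts are 3 of the 4 that fell by 6 or more over the span with the pseudocount of 1.

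The fourth, comp12244_c0_seq1, had 121, 7.76 and 0.58 RPKM and fell more at the first step (-3.80) than at the last (-2.47). The next 3 by size of fall shared this course. In stage order, comp41601_c0_seq1 had 165, 14.1 and 1.78 RPKM, comp44527_c0_seq1 had 145, 12.7 and 1.55 RPKM, and comp44155_c0_seq1 had 264, 25.6 and 3.66 RPKM. Their first-step differences lay between -3.46 and -3.32 and their last-step differences between -2.51 and -2.42. In all 3 the first-step difference was the larger.

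The remaining transcripts among the 10 greatest falls were already under 10 RPKM at the middle stage. The transcript comp25204_c0_seq1 had 108, 5.70 and 0.93 RPKM in stage order. For comp25128_c0_seq1 the values were 97.9, 7.19 and 1.07 RPKM, and for comp23862_c0_seq1 they were 60.2, 3.77 and 0.41 RPKM. Their last-step differences, -1.80, -1.98 and -1.76, start from low levels, where the pseudocount of 1 makes the log2 difference smaller than the ratio of the values. Of the 20 transcripts with the greatest fall over the span among all 7385, 18 fell at both steps, 1 at the first step only and 1 at the last step only. Over all 7385, 116 fell at both steps (1.57%). The span is the sum of the steps that the rule used, so the count among the 20 describes the group only.

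**Figure D2:**
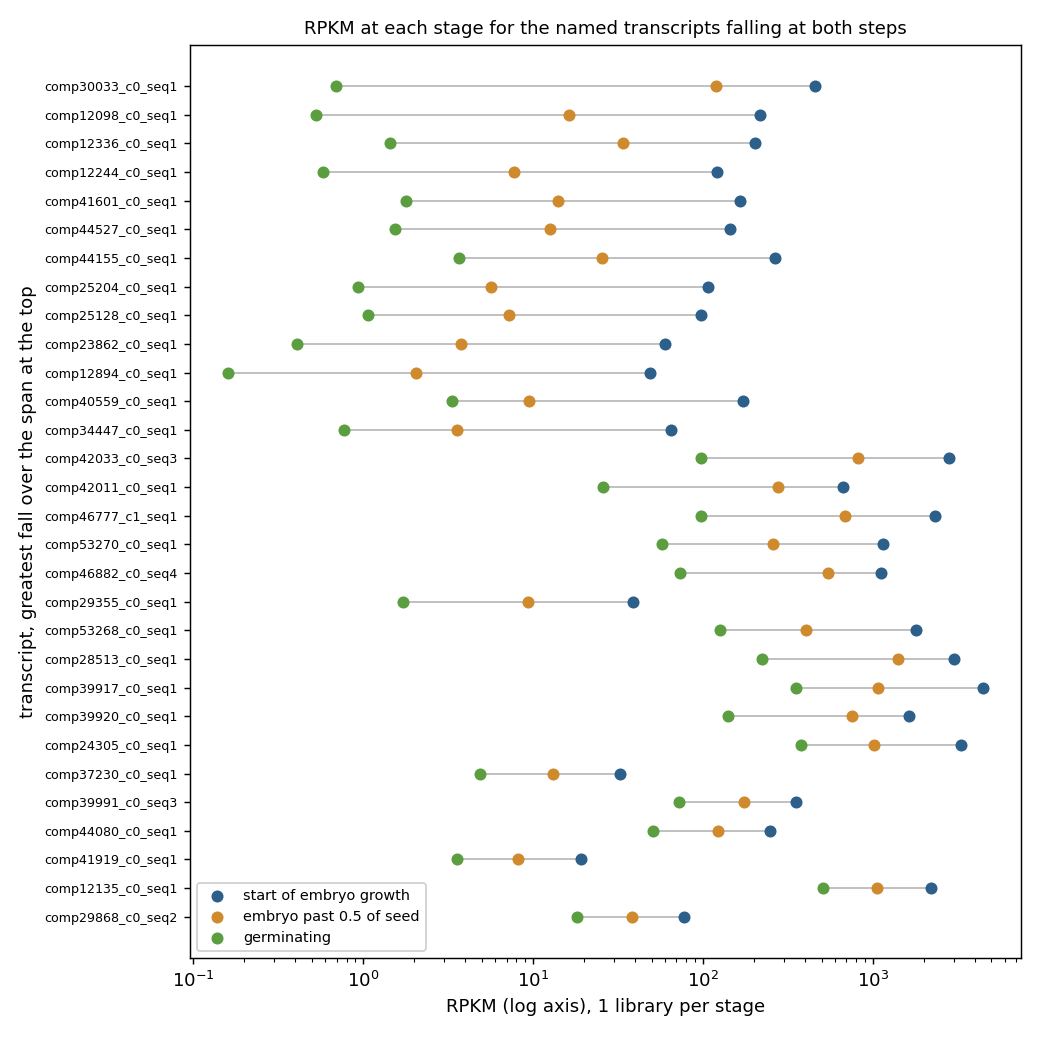
Points give the RPKM on a log axis at the start of embryo growth (blue), with the embryo past 0.5 of the seed length (orange) and at germination (green), for the 30 named transcripts that fell at both steps, with the greatest fall at the top. The germinating value is the lowest in every transcript, and it lies at 0.16 RPKM in comp12894_c0_seq1 and at 513 RPKM in comp12135_c0_seq1.

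The most abundant transcripts of the group stood near the top of the whole library at the first stage. Of the 10 most abundant transcripts of the first library, 5 fell at both steps, and of the 100 most abundant, 20 did. Of the 100 most abundant, 7 at the middle stage and 0 at germination belonged to the group. Transcripts rising at both steps numbered 1, 4 and 16 among the same 100 in stage order. A high rank in the first library favours transcripts that later fall, so the counts at that stage describe the group only.

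The most abundant of the group, comp39917_c0_seq1, had 4446, 1080 and 353 RPKM in stage order, with ranks of 3, 36 and 238. Next was comp24305_c0_seq1, with 3314, 1017 and 381 RPKM in stage order. The transcript comp28513_c0_seq1 had 3016, 1413 and 223 RPKM, so that it was the most abundant of the group at the middle stage. Despite falls of more than 3 over the span, all 3 stayed above 200 RPKM in germinating seeds.

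Other abundant transcripts ended lower. The transcript comp42033_c0_seq3 had 2797, 823 and 97.9 RPKM in stage order, and comp46777_c1_seq1 had 2332, 687 and 97.1 RPKM. Each had a first-step difference of -1.76 and a larger last-step one, -3.06 in the first transcript and -2.81 in the second. At the middle stage comp42033_c0_seq3 kept 29.4% of its first-stage level and comp46777_c1_seq1 kept 29.5%.

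The transcript comp12135_c0_seq1 fell least among the abundant ones, with 2211, 1054 and 513 RPKM, differences of -1.07 and -1.04, and 23.2% of its first-stage level left at germination. It was the most abundant of the group in germinating seeds, where it ranked 142. Differences over the span of -3.82 and -3.53 were found in comp53268_c0_seq1, with 1806, 405 and 127 RPKM, and in comp39920_c0_seq1, with 1642, 753 and 141 RPKM. The first of these fell more at the first step (-2.15, against -1.67) and the second more at the last (-2.40, against -1.12).

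The pattern made up a larger share of abundant transcripts than of weaker ones. Falls at both steps were found in 25 of 3174 transcripts with a mean of 10 to 20 RPKM (0.788%), in 30 of 2536 between 20 and 50 RPKM (1.18%) and in 25 of 888 between 50 and 100 RPKM (2.82%). Above that they were found in 30 of 749 transcripts between 100 and 1000 RPKM (4.01%) and in 6 of 38 at 1000 RPKM and above (15.8%). The share rising at both steps went up with level as well, with 3.69%, 4.38%, 5.18%, 6.81% and 10.5% in the same classes. Falls at the last step only made up 3.59%, 2.05%, 1.46%, 4.67% and 7.89% in the same classes, so that they too were most frequent in the 2 most abundant. Falls at the first step only did not follow this order, with 3.72% in the lowest class, 1.34% between 100 and 1000 RPKM and 2.63% in the highest. The pseudocount makes a given ratio count for less at low levels, and the part of this in the order was not tested.

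**Figure D3:**
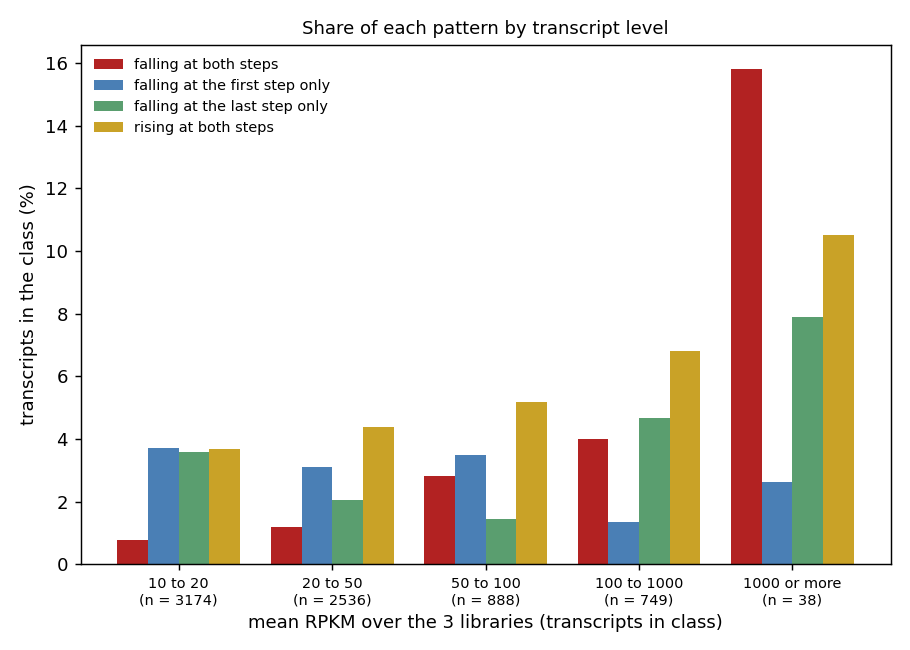
Bars give the percentage of transcripts in each class of mean RPKM that fell at both steps (red), fell at the first step only (blue), fell at the last step only (green) or rose at both steps (yellow). The red bars go up from 0.788% in the class of 10 to 20 RPKM to 15.8% in the class of 1000 RPKM or more, which holds 38 transcripts.

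Within the group, the balance between the steps varied. The fall was larger at the first step in 66 transcripts and at the last step in 50. In 57 transcripts the 2 differences lay within 0.5 of each other. The first-step fall exceeded the last by 1 or more in 18, and the last-step fall exceeded the first by 1 or more in 13. The majority depends on the processing. With a pseudocount of 0.1, 58 of the same 116 transcripts fell more at the last step, so that neither step held a majority. With a pseudocount of 5, 34 of them did. With the pseudocount kept at 1, 22 of the 36 with a mean of at least 100 RPKM fell more at the last step. By contrast, 27, 25 and 35 of the same 116 transcripts fell more at the last step after scaling by median of ratios, by trimmed means and to equal sums.

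The 18 transcripts weighted to the first step and the 13 weighted to the last, by the values as deposited, differed in level. Those weighted to the first step had median levels of 107, 10.6 and 2.56 RPKM in stage order. Those weighted to the last step had medians of 820, 390 and 70.7 RPKM, and the 85 between them 121, 25 and 6.45 RPKM. The ranges of the weighted sets overlapped, from 29.2 to 1031 RPKM at the first stage for the first-step set and from 73.4 to 3016 RPKM for the last-step set. A low middle-stage value leaves less room for a last-step fall in log2(RPKM + 1), and the part of this in the gap was not tested.

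**Figure D4:**
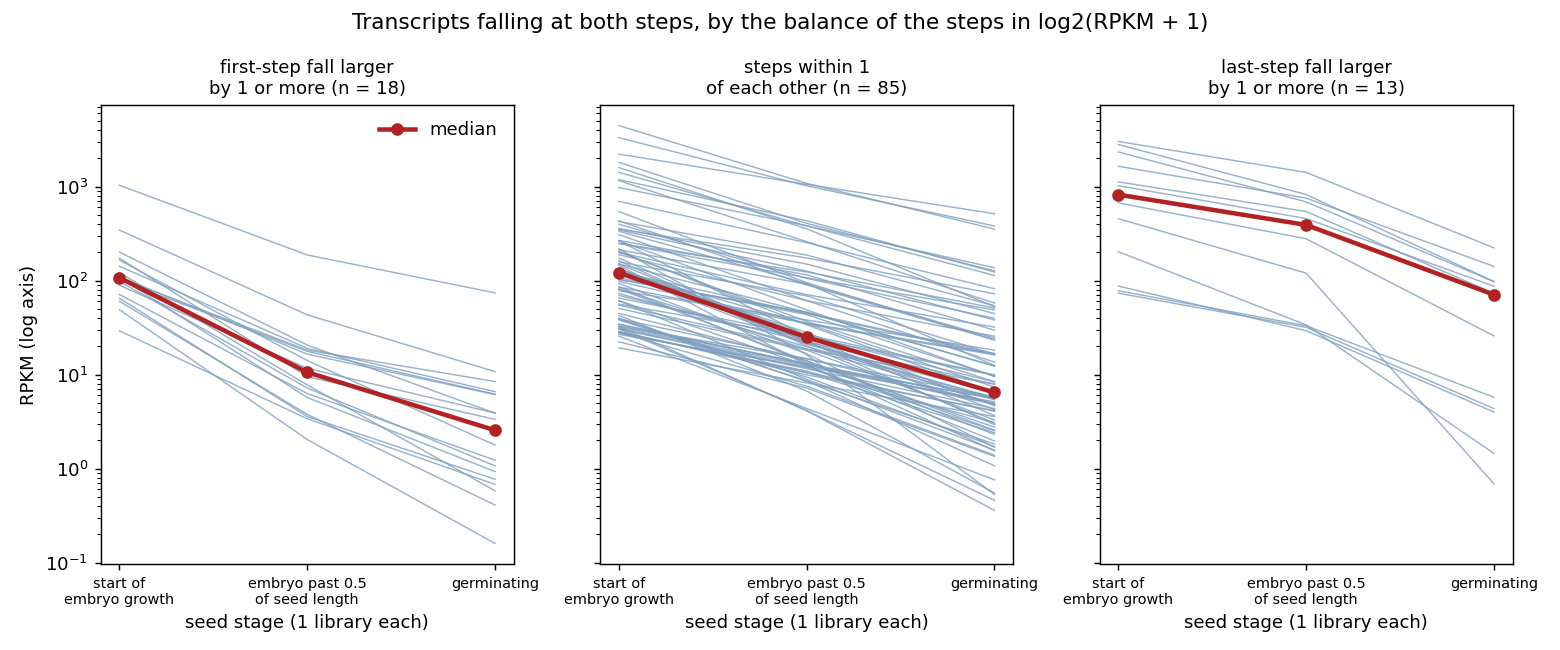
Each thin line joins the RPKM (log axis) of 1 transcript at the 3 stages, and the red line joins the medians, for the 18 transcripts weighted to the first step (left), the 85 with steps within 1 of each other (centre) and the 13 weighted to the last step (right). The median of the left set is 10.6 RPKM at the middle stage, against 390 RPKM in the right set.

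The strongest weighting to the first step was seen in comp40559_c0_seq1, with 173, 9.51 and 3.34 RPKM and differences of -4.05 and -1.28. The transcript comp12894_c0_seq1 had 49.0, 2.04 and 0.16 RPKM, the lowest values of the group at both later stages. The transcript comp34447_c0_seq1 had 64.7, 3.58 and 0.77 RPKM. With comp25204_c0_seq1 included, first-step differences in these 4 lay between -4.05 and -3.84 and last-step differences between -1.80 and -1.28.

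The strongest weighting to the last step, after comp30033_c0_seq1, was in comp42011_c0_seq1. It had 670, 278 and 25.8 RPKM in stage order, with differences of -1.26 and -3.38. The transcript comp46882_c0_seq4 had 1121, 542 and 73.1 RPKM, with differences of -1.05 and -2.87, and comp28513_c0_seq1, described above, had differences of -1.09 and -2.66. At the middle stage comp30033_c0_seq1 kept 26.3% of its first-stage level, comp42011_c0_seq1 41.5%, comp46882_c0_seq4 48.4% and comp28513_c0_seq1 46.8%.

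In the values as deposited, nearly equal steps occurred at high and low levels. Scaling moves the balance between the steps, as given above for the whole group. The transcript comp53270_c0_seq1 had 1154, 259 and 57.6 RPKM, with a difference of -2.15 at each step. Values of 39.0, 9.41 and 1.72 RPKM in comp29355_c0_seq1 gave a difference of -1.94 at each step. In comp37230_c0_seq1, 32.7, 13.2 and 4.90 RPKM gave -1.25 and -1.26, and in comp29868_c0_seq2, 78.0, 38.1 and 18.2 RPKM gave -1.02 and -1.03, the least fall over the span in the group.

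Across the 116 transcripts the first-step and last-step differences were weakly related (Spearman's rho 0.22, n = 116 transcripts). First-stage and germinating levels were related more closely (rho 0.72). Both are descriptions across transcripts of the same 3 libraries, which are no independent replicates, and the steps share the middle library. The rule also limits each step, and with them the germinating level relative to the first-stage level, so it shapes both values of rho. Transcripts at 1000 RPKM or more at the first stage, 15 in number, still had 52.8 to 513 RPKM at germination (median 113 RPKM). The 49 transcripts under 100 RPKM at the first stage had 0.16 to 18.2 RPKM at germination (median 3.29 RPKM).

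Transcripts that fell at one step only differed from the group in where their remaining level lay. The 239 with a fall at the first step only had medians of 34.7, 12.4 and 10.5 RPKM in stage order, and their median last-step difference was -0.36. The 217 with a fall at the last step only had medians of 12.6, 36.4 and 4.73 RPKM, with a median first-step difference of 1.40, so many of them had first gone up. The rule sets these differences, and they are given without a test.

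The edge of the group was not a gap. Its members nearest to the threshold were comp41919_c0_seq1 with 19.2, 8.16 and 3.58 RPKM and a last-step difference of -1.0, comp44080_c0_seq1 with 248, 123 and 51.1 RPKM and a first-step difference of -1.0, and comp39991_c0_seq3 with 352, 174 and 72.3 RPKM and a first-step difference of -1.01. Just outside stood comp39165_c0_seq2, with 46.6, 8.97 and 4.0 RPKM and a last-step difference of -0.996. Also outside were comp12396_c0_seq1, with 161, 16.4 and 7.84 RPKM and a last-step difference of -0.979, and comp38178_c0_seq2, with 99.3, 29.8 and 14.8 RPKM and -0.960. In 28 of the 116 the smaller fall was under 1.2, and in 48 transcripts outside the group it was 0.8 or more.

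The assembly identifiers were not used by the rule. Each identifier holds a component number (comp), a number within the component (c) and a sequence number (seq). The sequence number was above 1 in 21 of the 116 transcripts (18.1%), against 1287 of the 7385 transcripts with a mean of at least 10 RPKM (17.4%). Component numbers ran from 12089 to 53532 (median 37583) in the group and from 11831 to 56636 (median 42458) in the 7385. A single component number was shared within the group, by comp43081_c1_seq3 with 265, 48.8 and 9.59 RPKM and comp43081_c0_seq1 with 134, 26.5 and 9.94 RPKM in stage order. These transcripts differ in the c number. Their first-step differences were -2.42 and -2.29 and their last-step differences -2.23 and -1.33, so that 19.7% and 37.6% of the middle-stage level was left at germination. Sequences outside the group with the same component number as a member were not examined. Shared component numbers were not counted over the 7385.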

How the data were processed

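Total RNA from seeds was sequenced as paired-end Illumina libraries, per the labels' protocols, with 1 library per stage and columns matched to stages by library title. The authors deposited RPKM values for each transcript, printed to 2 decimals. R 3.1.0 is listed in the submitters' processing notes. The tools and settings for assembly, alignment, counting and filtering were not given in the sources used here. RPKM divides by a library total, so abundant transcripts lower the values of the others.

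Differences in log2(RPKM + 1) and counts were computed with Python 3.11.15, pandas 2.3.3 and numpy 2.4.6. The computation of the rule was checked on simulated data with planted falls and counting noise only. That check held no variation between seed lots or library preparations and does not bear on the transcripts chosen here. No p-value was computed. Rounding in the deposited values shifts log2(RPKM + 1) in the group by at most 0.0062. Named transcripts have the 10 greatest falls, the 8 highest first-stage values, the strongest weighting to either step (4 each), the most equal steps (4), or lie nearest to the threshold (3 inside, 3 outside). Identifiers sharing a component were chosen after their values were seen. The members, sets and rules were chosen with earlier results of these data known. Alternatives covered the pseudocount, the minimum mean, the size of a fall and the scaling.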

Additional observations from a re-analysis of the deposited data

How the results depend on the processing

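Values are given in the order: transcripts falling at both steps, those of them falling more at the last step, those under 1 RPKM at germination, median differences at the first step, last step and span, transcripts falling at the first step only, falling at the last step only, and rising at both steps. As reported they were 116, 50, 12, -1.83, -1.80, -3.72, 239, 217 and 329. A pseudocount of 0.1 gave 124, 58, 12, -1.88, -1.95, -3.87, 256, 228 and 363. A pseudocount of 5 gave 82, 31, 4, -1.76, -1.59, -3.45, 166, 185 and 208. A minimum mean of 1 RPKM gave 174, 72, 58, -1.70, -1.56, -3.33, 1055, 2699 and 550. Without a minimum only the single-step counts changed further, to 2746 and 11079. The other values could not change, since 2 steps of 1 or more on this scale require a mean above 1 RPKM. A minimum mean of 100 RPKM gave 36, 22, 1, -1.47, -1.88, -3.58, 11, 38 and 55, so the larger fall lay more often at the last step. A required fall of 1.5 gave 52, 16, 9, -2.41, -2.09, -4.60, 104, 179 and 122, and one of 2 gave 23, 7, 3, -2.50, -2.31, -4.89, 58, 150 and 56. Median-of-ratios scaling gave 92, 29, 10, -2.15, -1.67, -3.89, 343, 152 and 500. Trimmed-mean scaling gave 98, 28, 12, -2.23, -1.68, -3.89, 410, 153 and 451. Equal sums gave 120, 42, 13, -1.98, -1.77, -3.83, 409, 197 and 298.

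Of the 116 transcripts, 90, 94 and 112 were chosen again under these scalings in turn, 116 with a pseudocount of 0.1 and 82 with a pseudocount of 5. By construction, stricter minimums and sizes and a larger pseudocount can only remove transcripts from the 116. Lower minimums and a smaller pseudocount can only add to them. The cause of the other changes was not tested. The direction of each named transcript's span is fixed by the size of its fall, so its sign under other settings carries no information. No replicate could be left out, since there are none. No paired analysis was possible because each stage has 1 library. Values under 1 RPKM are limited by depth, which is unknown in reads.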

Other observations

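A further 58 transcripts fell by 1 or more at both steps but had a mean under 10 RPKM. All 58 had a mean of at least 1 RPKM, which falls of 1 or more at both steps on this scale require. Their median levels were 11 RPKM at the start of embryo growth (range 3.39 to 23.4), 2.75 RPKM with the embryo past 0.5 of the seed length and 0.435 RPKM at germination. The highest germinating value among them was 2.61 RPKM, and 7 of them were listed at 0 in germinating seeds. The fall was larger at the last step in 22 of the 58, against 50 of the 116 more abundant transcripts, on a scale that compresses low values. The greatest falls over the span among these weaker transcripts, chosen after their values were seen, were in comp35160_c0_seq2 with 16.1, 2.89 and 0.08 RPKM in stage order and in comp12289_c0_seq1 with 16.8, 4.4 and 0.20 RPKM.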
